A study of Mus musculus and Acomys cahirinus with 25 samples.

Results

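Integrins and laminins, the receptors and the sheet-forming ligands that hold skin cells to their matrix, were followed in 25 RNA-seq libraries of laboratory mouse and spiny mouse wounds. Members were taken by symbol, as every Itga or Itgb integrin subunit and every Lama, Lamb or Lamc laminin chain, and numbered 37 of the 24500 gene symbols counted, 26 of them integrin subunits and 11 laminin chains. Binding partners and unrelated genes with like symbols, such as Itgb1bp1 and Itgbl1, were not members. Members took between 0.108% and 0.558% of the reads on genes of a library, and 30 to 37 of them had at least 3 counts.

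Each integrin is a dimer of an alpha and a beta subunit that crosses the plasma membrane and couples matrix to cytoskeleton, and each laminin is a trimer of an alpha, a beta and a gamma chain laid down in basement membranes. In skin, basal keratinocytes anchor through the Itga6-Itgb4 dimer of the hemidesmosome to a laminin that holds Lama3 and Lamb3, while fibroblasts and vessels use Itgb1 dimers and other laminins. Leukocytes carry their own set, built mostly around Itgb2.

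Laboratory mice were 4-week-old C57BL/6J animals with a full-thickness dorsal wound, sampled at post-wound day (PWD) 14, when the wound was divided into center and margin and the epidermis was separated from the dermis by hand. They gave 2 libraries each of wild-type (WT) center epidermis, margin epidermis and margin dermis, 5 of WT center dermis and 2 of knockout (KO) center dermis. KO animals carried K14-Cre and Twist1-loxP, so that Twist1 was deleted in keratinocytes and not in the dermis that was sequenced, and their controls were Twist1+/+. Of the WT center dermis libraries, replicates 1 and 2 belonged with the margins, and replicates 3, 4 and 5 with the KO libraries. Spiny mice (Acomys cahirinus, 2 months old, WT) gave whole wounds separated with trypsin at PWD0, 14, 21 and 28, with 1, 2, 2 and 1 libraries of epidermis and 2, 1, 2 and 1 of dermis. These days follow the labels, and the study's own sample list gives slightly different days for the wounded samples. These comparisons ask where and when genes differ around the onset of hair neogenesis, which appears in the wound center in the laboratory mouse and across the wound in the spiny mouse.

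Reads on genes ranged from 19413261 to 86532134 in laboratory mouse libraries and from 5669760 to 34751956 in spiny mouse libraries. Spiny mouse reads had been aligned to the laboratory mouse genome, and 38.0% to 60.5% of them were set aside for low alignment quality, against 23.3% to 34.4% in the laboratory mouse, so levels were not compared between species. Levels are given as CPM, the usual depth-scaled read count, after TMM scaling within a species. Sums of 12 keratinocyte markers were 212000 to 285000 CPM in laboratory mouse epidermis and 8.78 to 29600 CPM in its dermis, and 30600 to 131000 CPM against 606 to 11700 CPM in the spiny mouse. Sums of 12 fibroblast markers were 910 to 8630 CPM in laboratory mouse epidermis and 70200 to 137000 CPM in its dermis. Each tissue thus carried its own markers, with some of the other's. In KO replicate 2 the keratinocyte sum was 29600 CPM, against 920 CPM in KO replicate 1 and 8.78 to 50.0 CPM in the 3 controls. For the KO comparison, the number of members called is given with and without KO replicate 2 below. Fold changes and FDR values of single members are given with it only, beside their values per library.

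All 37 members have coordinates in the RefSeq annotation of GRCm38, and 23 have at least 1 listed promoter window there. The 250 bases before the first listed start are shown for 4 members that the results turn on. These are Itga3 and Lamb3 of the basal epidermal set, Itga5, and the dermal collagen receptor subunit Itga11. Itga3 and Lamb3 have 2 listed windows each, and the start used is not the most upstream of the gene. The annotated genes span chr11:95044475-95076844 and chr1:193294353-193343878, so the Itga3 window lies partly and the Lamb3 window wholly inside the gene. Capitals mark E-boxes (CANNTG, the class of site that Twist1 and related factors bind). AP-1 motifs (TGANTCA) were searched as well and none lay in these 4 windows. Sequences are from RefSeq, build GRCm38.p6, 5′ to 3′ on the strand of the gene.
Itga3 (chr11:95076715-95076964, minus strand): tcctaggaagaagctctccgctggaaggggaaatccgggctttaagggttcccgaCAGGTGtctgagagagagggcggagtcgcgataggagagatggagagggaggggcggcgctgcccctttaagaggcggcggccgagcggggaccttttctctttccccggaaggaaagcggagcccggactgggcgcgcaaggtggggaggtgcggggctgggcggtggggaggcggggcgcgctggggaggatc
Lamb3 (chr1:193301744-193301993, plus strand): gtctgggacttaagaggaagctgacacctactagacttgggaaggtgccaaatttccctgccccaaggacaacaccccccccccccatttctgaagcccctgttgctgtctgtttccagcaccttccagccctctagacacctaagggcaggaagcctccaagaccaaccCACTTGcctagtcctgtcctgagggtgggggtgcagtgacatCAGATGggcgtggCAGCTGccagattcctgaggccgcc
Itga5 (chr15:103366792-103367041, minus strand): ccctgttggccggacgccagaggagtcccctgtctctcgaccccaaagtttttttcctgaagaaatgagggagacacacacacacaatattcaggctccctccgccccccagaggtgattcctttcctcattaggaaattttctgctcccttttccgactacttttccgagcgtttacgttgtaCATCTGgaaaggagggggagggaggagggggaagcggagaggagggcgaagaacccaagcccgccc
Itga11 (chr9:62677605-62677854, plus strand): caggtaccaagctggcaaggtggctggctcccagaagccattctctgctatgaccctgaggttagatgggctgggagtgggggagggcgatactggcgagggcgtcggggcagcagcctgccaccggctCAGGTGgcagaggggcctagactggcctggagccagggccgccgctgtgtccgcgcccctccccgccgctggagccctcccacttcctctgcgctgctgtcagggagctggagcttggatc
At least 1 E-box was present in 21 of the 26 member windows, and in 66.2% of all 32851 windows of this length. The AP-1 motif was found in 1 of the 26 (Itgax) and in 6.75% of all, and the GC box (GGGCGG) in 9 of the 26 and in 32.7% of all. Both strands were searched, and a match in these letters is a description of the window only.

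Per kilobase of exon, Itgb1, the beta subunit shared by most matrix receptors, was the highest member in every laboratory mouse group and in all spiny mouse groups but unwounded epidermis, where Itgb4 stood at 63.4 and Itgb1 at 58.4 CPM per kb. In laboratory mouse dermis Itgb1 averaged 263 CPM per kb at the center and 269 at the margin, followed by Itgb5 at 97.2 and 63.9. In center epidermis Itgb1 stood at 93.6 (range 86.8 to 100) and Itgb5 at 85.3 CPM per kb (83.4 to 87.1), and these ranges overlapped. Itga6 at 36.5, Lamb3 at 36.1 and Lama3 at 31.6 CPM per kb were lower, of which Itga6 (35.7 to 37.3) and Lamb3 (35.9 to 36.4) overlapped.

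**Figure D1:**
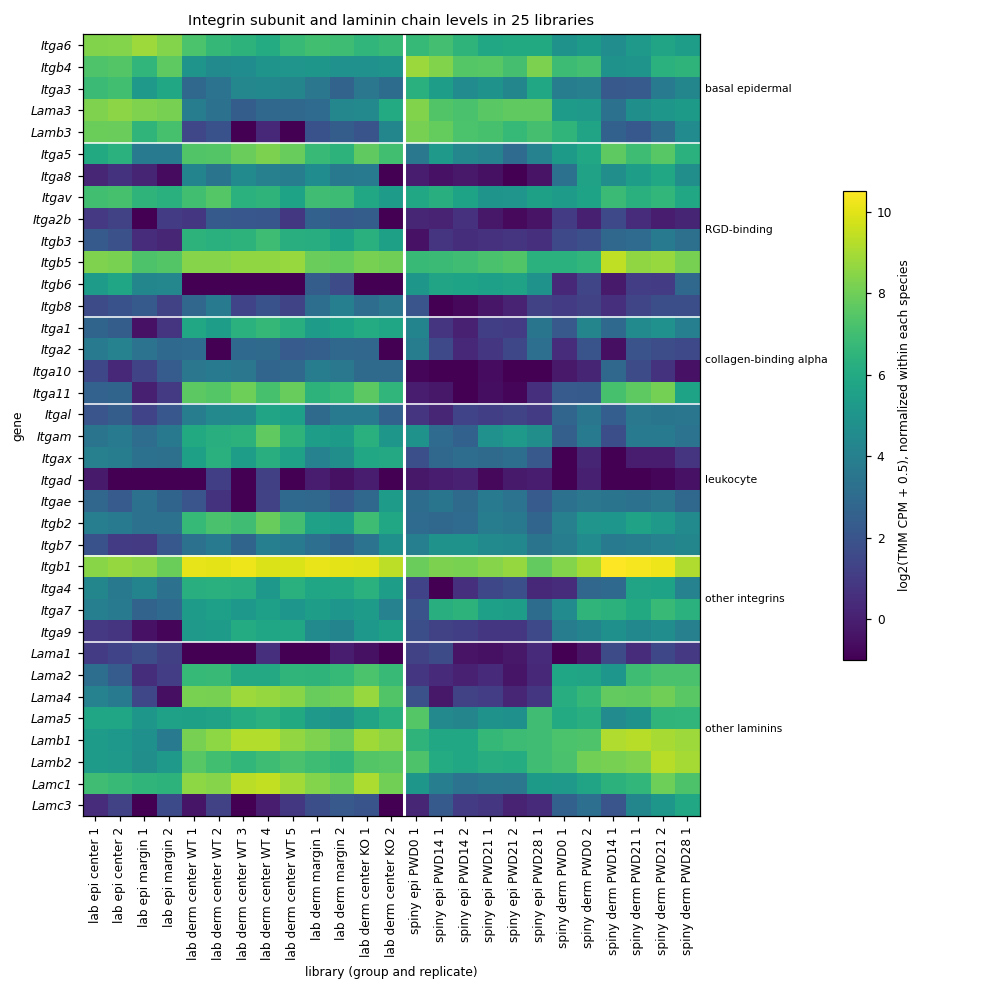
Level of 36 members (rows) in each of the 25 libraries (columns) as log2(TMM CPM + 0.5), scaled within each species, with the white vertical line between laboratory mouse and spiny mouse. The 5 basal epidermal genes at the top are bright in epidermis, and Itga11, Lama2 and Lama4 are dark there.

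Epidermis and dermis were told apart first by the basal epidermal set, the hemidesmosome pair Itga6 and Itgb4, the keratinocyte laminin receptor subunit Itga3, and the chains Lama3 and Lamb3. All 5 of these were higher in laboratory mouse epidermis than in dermis, at the center and at the margin, and 4 of the 5 were higher in the PWD21 spiny mouse wound. Lamb3 stood at 241 and 237 CPM in center epidermis and at 2.25 and 3.29 CPM in center dermis, so that every epidermal library lay far above every dermal one. Its log2 fold change was 6.45 (SE 0.25, FDR = 0.000165 from edgeR's quasi-likelihood test). Lama3 stood at 314 and 365 CPM against 14.2 and 9.79 CPM, a log2 fold change of 4.84 (SE 0.25). In the spiny mouse at PWD21, Lamb3 was 144 and 105 CPM in epidermis and 4.03 and 8.14 CPM in dermis, and Itga6, the exception, was 59.2 and 63.0 CPM against 36.4 and 53.0 CPM (log2 fold change 0.41, SE 0.23, FDR = 0.147).

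Itgb6, an epithelial subunit that pairs with Itgav to bind and activate latent TGF-beta, stood at 39.9 and 55.7 CPM in laboratory mouse center epidermis and had 0 counts in each of the 5 WT and 2 KO center dermis libraries. With 3 counts taken as the smallest detectable amount in a library, it was at least 376-fold higher in center epidermis. In the spiny mouse it ranged from 29.8 to 53.3 CPM over the 6 epidermal libraries and from 0.386 to 6.60 CPM over the 6 dermal ones. Such floors cover counting error only.

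Over all members, 8 were higher and 21 lower in epidermis among 37 tested at the laboratory mouse wound center, where 29.3% and 26.8% of all genes tested were higher and lower. At the margin it was 8 and 18 of 36 (20.9% and 26.8% of all genes), and in the PWD21 spiny mouse wound 8 and 22 of 36 (29.4% and 33.5%). Members lower in epidermis exceeded their background share in all 3 comparisons, members higher were near or below theirs, and 17 members were lower in all 3 comparisons. Laboratory mouse epidermis was read paired-end and its dermis single-end, so that read type and tissue cannot be told apart there, while spiny mouse libraries were all single-end.

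Among the members higher in dermis was Itga11, the alpha subunit of a fibroblast receptor for fibrillar collagen. It was 199 and 178 CPM in laboratory mouse center dermis and 5.62 and 6.00 CPM in center epidermis (log2 fold change -5.00, SE 0.18). In the spiny mouse at PWD21 it was 201 and 273 CPM in dermis and 0.182 and 0.0570 CPM in epidermis, which is 6 and 1 counts. Lama4, a chain of vessel and mesenchymal laminins, was 293 and 284 CPM in laboratory mouse center dermis against 16.5 and 12.9 CPM in epidermis. Lama2, the muscle and nerve laminin chain, was 104 and 113 CPM against 8.38 and 4.60 CPM. As in any bulk sample, fewer cells of a type and less RNA per cell cannot be told apart in such values.

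Leukocyte integrins did not keep 1 direction over the species. Itgax, a subunit of myeloid and dendritic cells, was lower in laboratory mouse center epidermis (15.8 and 13.6 CPM) than in center dermis (46.7 and 77.9 CPM), a log2 fold change of -2.06 (SE 0.31). In the PWD21 spiny mouse wound it was higher in epidermis (7.45 and 8.56 CPM) than in dermis (0.443 and 0.458 CPM), a log2 fold change of 4.10 (SE 0.36, FDR = 6.35e-05). Itgam, the complement receptor subunit of myeloid cells, was lower in laboratory mouse epidermis at center and margin (log2 fold changes of -2.58 and -1.93) and higher in the spiny mouse, at 28.1 and 36.4 CPM against 13.3 and 13.1 CPM (log2 fold change 1.24, SE 0.22). Itgb2, the partner of both, was lower in epidermis in all 3 comparisons. The difference between the species was not tested. Sums of 11 leukocyte markers were 309 and 385 CPM in laboratory mouse center epidermis and 2750 and 3240 CPM in center dermis. In the spiny mouse they were 341 and 340 CPM against 573 and 375 CPM. There, 1 of the markers was at 0 in each epidermal library and 2 in each dermal one. Of 11 markers tested, 2 were called higher and 7 lower in laboratory mouse center epidermis. Of 9 tested in the PWD21 spiny mouse wound, 1 was higher and 6 lower in epidermis. The part of leukocytes in the Itgam and Itgax values was not tested.

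**Figure D2:**
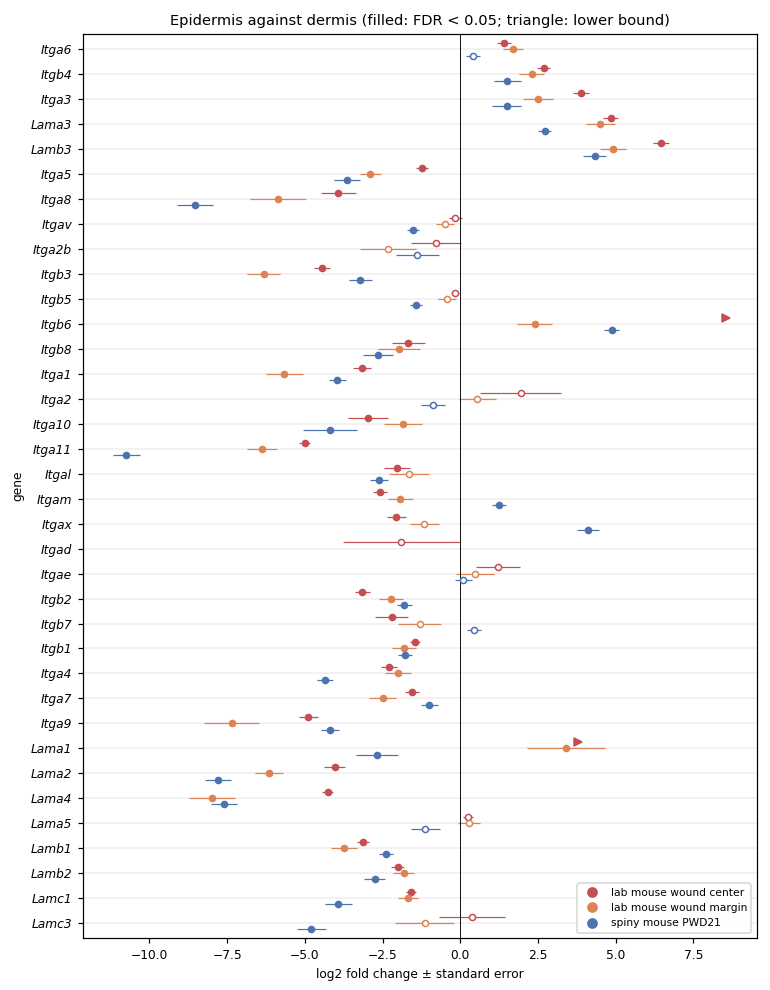
Log2 fold change of epidermis against dermis (x axis, bars are standard errors) for 36 members (y axis), at the laboratory mouse wound center and margin and in the PWD21 spiny mouse wound. Filled points have an FDR under 0.05 and triangles are lower bounds for genes with 0 counts in dermis. The 5 genes at the top lie to the right, Itga11, Lama2 and Lama4 to the left, and Itgam and Itgax on opposite sides in the 2 species.

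Related genes were counted in the same comparisons. Of 17 integrin adaptors, 2 were higher and 12 lower in laboratory mouse center epidermis, 1 and 13 at the margin, and 1 and 16 in the spiny mouse at PWD21. Fermt1, the kindlin of epithelia, was higher in all 3 comparisons (log2 fold change 4.17 in the spiny mouse), and Tns1 (-6.23) and Fermt2 (-5.59) had the largest decreases of the list in the spiny mouse. Of 15 other basement membrane genes, 5 were higher and 5 lower at the laboratory mouse center, near the shares of all genes, 4 higher and 5 lower at the margin, and 2 higher and 10 lower in the spiny mouse, where Col17a1, a hemidesmosome collagen, had a log2 fold change of 4.55 and Nid2 of -8.61.

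Wound center and wound margin were compared to ask which members distinguish the region where hair follicles form. In epidermis, Itga5, the alpha subunit of the classical fibronectin receptor, was the member called higher at the center. It stood at 62.7 and 80.7 CPM in center libraries and at 13.5 and 12.3 CPM in margin libraries, which is 71.7 ± 12.8 against 12.9 ± 0.844 CPM (SD, n = 2 each). All center libraries lay above all margin libraries, with a log2 fold change of 2.33 (SE 0.28, FDR = 0.0369). Fn1, the ligand, rose as well (log2 fold change 1.78, FDR = 0.039), as did Spp1, an integrin-binding matrix phosphoprotein (3.90), and the basement membrane collagens Col4a1 (3.61) and Col4a2 (3.05).

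At this threshold 1 member was higher and 0 lower among 36 tested, against 0.882% and 0.360% of all genes tested. With an unadjusted p-value under 0.05, 13 members were higher and 0 lower, against 13.1% and 10.4% of all genes. The member median log2 fold change was 0.48, and that of all genes -0.02. DESeq2 called 9 members and edgeR's likelihood ratio test 6, while the quasi-likelihood estimate of edgeR 3 called 0, with 11 members at an unadjusted p-value under 0.05. Without center replicate 2 the call of Itga5 was lost and 0 members were called, and without margin replicate 1 or margin replicate 2 the number of members called was 19.

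The 13 members fell into different tissue sets. Itga3 (115 and 131 CPM against 37.0 and 57.1), Itgb6 (39.9 and 55.7 against 19.0 and 19.4) and Lamb3 (241 and 237 against 91.7 and 144) belonged to the epidermal side, and their FDR values were 0.0930, 0.112 and 0.140. Lama4 (16.5 and 12.9 CPM against 2.25 and 0.204, FDR = 0.0815), Itga11 (5.62 and 6.00 against 0.522 and 1.47), Itga1 (6.06 and 4.81 against 0.241 and 1.24), Itgb3, Lama2, Itga9 and Itga7 were called higher in dermis than in epidermis at center and margin, while Itgav and Itgb5 were called in neither direction there. Fibroblast marker sums were 8630 and 7050 CPM in center epidermis against 2980 and 910 CPM at the margin, with none of the 12 markers at 0 in any library and 2 of them called higher at the center, and endothelial marker sums were 51.1 and 34.1 CPM against 9.40 and 2.33 CPM. Itga5 was also higher in dermis than in epidermis. The part of these cells in the center-margin values was not tested. Scaling over all laboratory mouse libraries, used for the CPM, and scaling within this comparison differed by 0.17 on the log2 scale. The hemidesmosome pair did not pass, with Itga6 at 322 and 336 CPM against 459 and 336 CPM, and Itgb4 at 161 and 173 CPM against 94.5 and 204 CPM.

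In dermis, Itgb2, the common beta subunit of leukocyte integrins, was the member called higher at the center. It stood at 105 and 146 CPM at the center and at 48.2 and 43.2 CPM at the margin, with no overlap and a log2 fold change of 1.46 (SE 0.24, FDR = 0.0169). Its partners Itgax (46.7 and 77.9 CPM against 17.0 and 25.4, log2 fold change 1.55, FDR = 0.073) and Itgam (63.2 and 75.9 against 42.0 and 38.7, log2 fold change 0.79, FDR = 0.189) did not pass. Leukocyte marker sums were 2750 and 3240 CPM at the center and 1840 and 2490 CPM at the margin, and none of the 11 markers was called. At an unadjusted p-value under 0.05, 3 of the 11 were higher at the center and 1 lower. The part of leukocytes in these values was not tested. Itga11 followed, at 199 and 178 CPM against 86.4 and 105 CPM (log2 fold change 0.98, SE 0.20, FDR = 0.0617), then Itga5 at 167 and 175 CPM against 110 and 86.0 CPM (FDR = 0.119).

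Among 36 members tested in dermis, 1 was called higher and 0 lower, against 0.116% and 0.735% of all genes, and 9 and 2 had an unadjusted p-value under 0.05, against 5.11% and 10.7%. Of the 2 on the lower side, Itgb6 had 0 counts at the center and 4.74 and 2.71 CPM at the margin (at least 29.3-fold lower). Keratinocyte marker sums were 544 and 329 CPM at the center and 1800 and 3420 CPM at the margin, where 5 of the 12 markers were called lower at the center, and Schwann cell marker sums were 147 and 103 CPM against 476 and 344 CPM. Their part in these values was not tested. The call of Itgb2 was lost without margin replicate 1, without margin replicate 2, with the edgeR 3 estimate and with all laboratory mouse libraries in 1 fit, while DESeq2 called 6 members.

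An interaction term asked whether center and margin differed by the same amount in both tissues. It compared signed log2 fold changes of center against margin. These were higher in epidermis than in dermis for 4 of 37 members and lower for 0, against 3.34% and 0.135% of all genes. Among markers they were higher for 4 of 8 endothelial, 4 of 12 fibroblast and 6 of 12 keratinocyte genes, and lower for 0. Median log2 differences of these 3 lists were 3.78, 1.89 and 3.01. Within epidermis the median log2 fold changes of center against margin were 3.75, 2.05 and 0.07, and within dermis 0.42, 0.3 and -2.94. A higher value in epidermis was thus not always the larger change. The part of such cells in the member values was not tested. Itga5 differed by 1.67 (SE 0.36, FDR = 0.0276) and Lama4 by 3.80 (SE 0.74, FDR = 0.0169) on the log2 scale, and the median over all genes in this test was 0.31. Itgb6 was called as well (FDR = 0.00737), but its fitted size rests on 0 counts in center dermis and is no bound. With all laboratory mouse libraries in 1 fit 0 of these calls remained, and 1 remained when any of the 4 dermis libraries was left out.

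**Figure D3:**
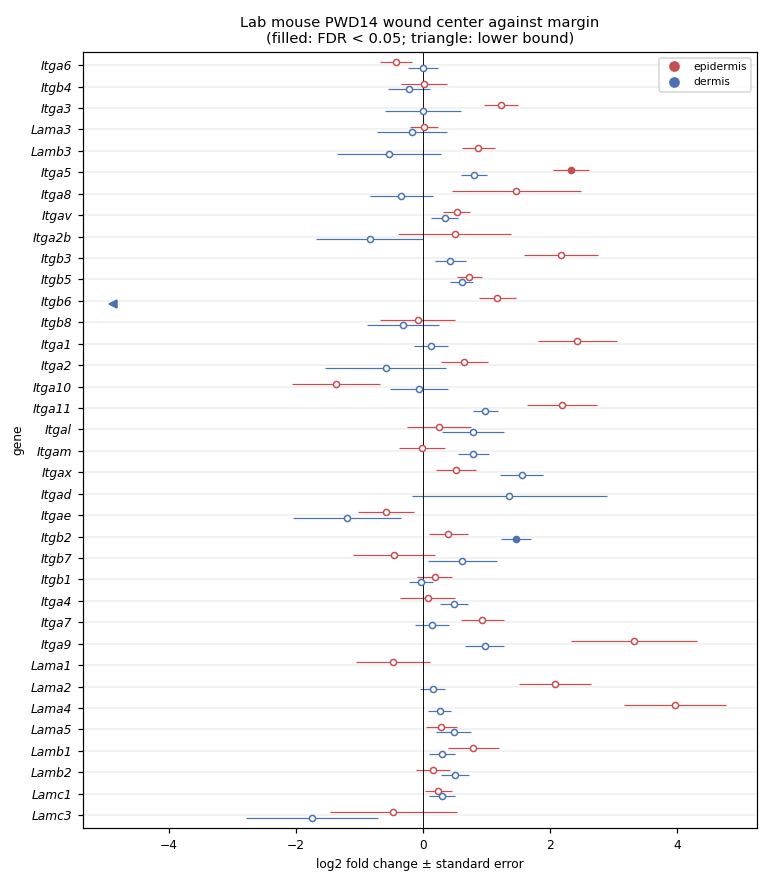
Log2 fold change of wound center against margin at PWD14 (x axis, bars are standard errors) for members tested (y axis) in laboratory mouse epidermis and dermis. Filled points have an FDR under 0.05, namely Itga5 in epidermis and Itgb2 in dermis, and the triangle is the lower bound for Itgb6 in dermis.

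In the KO comparison, which asks how loss of epidermal Twist1 bears on the dermis below, Twist1 itself stood at 51.6, 32.2 and 94.5 CPM in the 3 WT dermis libraries and at 66.8 and 38.0 CPM in the 2 KO libraries. These ranges overlapped. Because the deletion was made in keratinocytes, Twist1 in dermis does not check it.

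No member was called (0 of 35 tested, against 0.0494% of all genes higher and 0.00706% lower in edgeR's quasi-likelihood test), and 7 members were higher and 3 lower at an unadjusted p-value under 0.05, against 6.98% and 4.54%. DESeq2 called 6 members and the likelihood ratio test 1. In simulated data, 22.5% of genes given a log2 fold change of 2 were called in this comparison. Over all comparisons this share ranged from 0% to 84%. Keratinocyte laminin chains Lama3 and Lamb3 had the lowest p-values. Lama3 stood at 4.84, 7.02 and 7.03 CPM in WT and 20.7 and 65.9 CPM in KO libraries (FDR = 0.218) and Lamb3 at 0, 0.716 and 0 CPM against 3.47 and 19.1 CPM (FDR = 0.270). Each was highest in KO replicate 2, the library with a keratinocyte marker sum of 29600 CPM. Itgae, a subunit of intraepithelial T cells, was also highest in KO replicate 2. It stood at 0, 1.83 and 7.20 CPM in WT and 6.77 and 41.1 CPM in KO libraries, and these ranges overlapped.

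On the lower side, Itgal, the lymphocyte partner of Itgb2, stood at 21.4, 52.2 and 44.8 CPM in WT and 13.3 and 5.42 CPM in KO libraries (log2 fold change -2.06, SE 0.57, FDR = 0.273), and Itgam at 85.5, 210 and 88.3 CPM against 78.7 and 33.7 CPM (FDR = 0.426). Lama2 was higher in both KO libraries, at 154 and 107 CPM against 61.4, 61.8 and 93.0 CPM (FDR = 0.343). KO replicate 2 also had 0 counts of Itga8, against 311 counts in KO replicate 1 and 350 to 697 in WT libraries, and 0 counts of Itga2, Itga2b and Lamc3. It held the fewest members with at least 3 counts (30) and the highest share of low-quality alignments (34.4%). Without it 0 members were called, and without KO replicate 1 there were 12. All 11 keratinocyte markers tested were higher in KO dermis at an unadjusted p-value under 0.05, with log2 fold changes of 4.82 to 15.27. Of these, Krt14 was called (log2 fold change 9.42, FDR = 0.0474). The part of keratinocyte RNA in these values was not tested.

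**Figure D4:**
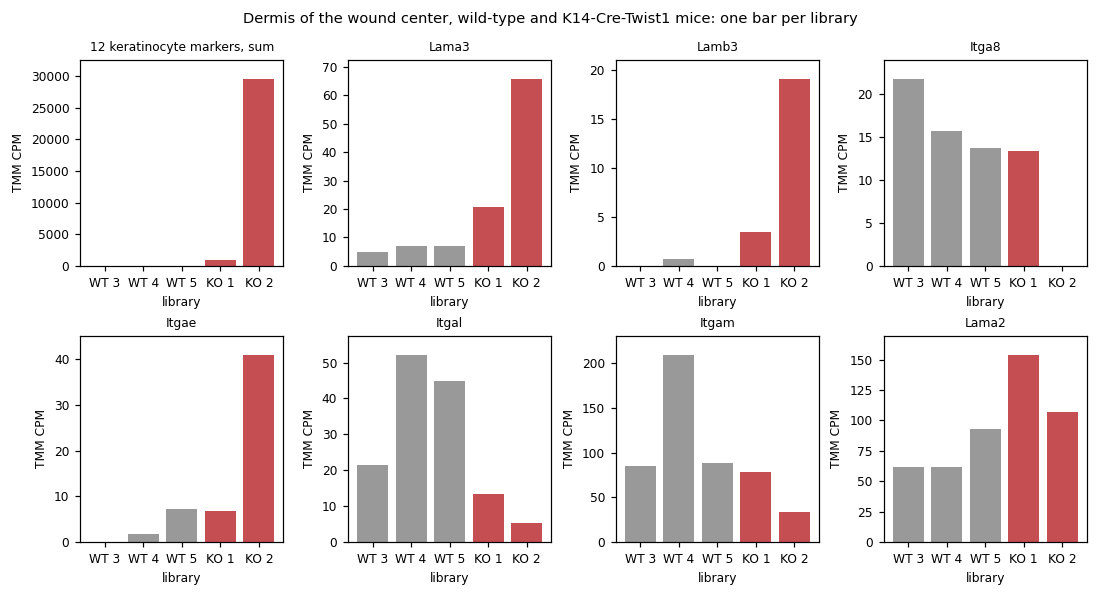
Summed level of 12 keratinocyte markers and levels of 7 members (y axes, TMM CPM from 0) in the 3 WT and 2 KO libraries of center dermis, 1 bar per library. Lama3, Lamb3 and Itgae are highest in KO replicate 2, as are the markers, and Itgal is lower in both KO libraries than in all WT libraries.

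The spiny mouse dermis was compared at PWD21 and PWD0 to ask which members move from unwounded to wound skin. Itga11 rose most. It stood at 4.39 and 4.35 CPM at PWD0, 143 CPM at PWD14, 201 and 273 CPM at PWD21 and 50.9 CPM at PWD28. All wound libraries lay above both unwounded ones, and the PWD21 change was 5.69 on the log2 scale (SE 0.34, FDR = 0.000145). Itga4, which binds fibronectin and the vascular adhesion protein Vcam1, stood at 0.877 and 6.39 CPM at PWD0, 7.27 CPM at PWD14 and 53.2 and 50.6 CPM at PWD21 (log2 fold change 3.75, SE 0.68), so that its PWD14 level was still near the unwounded one. Itga5 stood at 38.4 and 60.3 CPM at PWD0, 200 CPM at PWD14, 124 and 184 CPM at PWD21 and 81.9 CPM at PWD28.

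Library quality differed with the day, with 60.5% and 55.2% of reads set aside for low alignment quality at PWD0 against 44.8% and 38.0% at PWD21, and 5669760 and 6804714 reads on genes against 21927269 and 34751956. Its part in these values was not tested.

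In all, 12 members rose and 2 fell among 35 tested, against 12.0% and 14.2% of all genes. Beta subunits Itgb5 (log2 fold change 2.14), Itgb3 (1.78) and Itgb1 (1.52) and alpha subunit Itgav (0.90) rose, as did 5 laminin chains, namely Lamc1 (1.92), Lamc3 (1.81), Lamb1 (1.77), Lama4 (1.37) and Lama2 (1.24). Lamb1 went from 152 and 165 CPM to 620 and 513 CPM. Lamb3 fell, from 91.1 and 52.8 CPM to 4.03 and 8.14 CPM. Keratinocyte marker sums were 11700 and 6810 CPM at PWD0 and 606 and 1120 CPM at PWD21, with no marker at 0 and 10 of the 12 called lower at PWD21, and their part in the decreases was not tested. Of the fibroblast markers 7 of 12 rose and 0 fell, of the endothelial markers 4 of 8 rose and 0 fell, and all 7 muscle markers fell, from sums of 857 and 1920 CPM to 314 and 429 CPM, and the part of these cells in the rises was not tested either. Of 10 integrin ligands tested 5 rose, among them Tnc (5.74), Fn1 (4.61) and Vcam1 (3.08), while 2 fell, Cdh1 (-1.82) and Vtn (-1.51). Without PWD21 replicate 2 the members called numbered 7, without PWD21 replicate 1 they numbered 9, and without PWD0 replicate 2 they numbered 22.

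In spiny mouse epidermis, PWD14 was compared with PWD21. Reads set aside for low alignment quality were 59.5% and 59.6% at PWD14 and 52.6% and 50.0% at PWD21. Keratinocyte marker sums were 131000 and 118000 CPM at PWD14 and 83800 and 77700 CPM at PWD21. Of the 12 keratinocyte markers, 2 were called higher and 3 lower at PWD14. The part of library quality and of keratinocyte RNA in the member values was not tested. Itga7, a laminin receptor subunit best known from muscle, stood at 3.41 CPM at PWD0, 77.3 and 86.6 CPM at PWD14, 45.5 and 41.5 CPM at PWD21 and 7.79 CPM at PWD28, and was higher at PWD14 than at PWD21 by 0.95 on the log2 scale (SE 0.18, FDR = 0.00136). Sums of 7 muscle markers were 118 CPM at PWD0, 34.1 and 37.4 CPM at PWD14, 52.0 and 41.9 CPM at PWD21 and 72.5 CPM at PWD28. The median marker stood at 0.915 CPM or less in each of these libraries. The part of muscle cells in the Itga7 values was not tested. Itgav (77.4 and 50.7 CPM against 30.9 and 31.8), Itga6 (135 and 88.7 against 59.2 and 63.0) and Itga5 (35.4 and 19.7 against 17.0 and 7.70) were also higher at PWD14, with log2 fold changes of 1.07, 0.91 and 1.14. Itgam was lower, at 7.59 and 5.50 CPM against 28.1 and 36.4 CPM (log2 fold change -2.27, SE 0.28, FDR = 0.000141), and it stood at 29.1 CPM at PWD0. Leukocyte marker sums were 364 and 363 CPM at PWD14 and 341 and 340 CPM at PWD21, but 4 of the 9 markers tested were lower at PWD14, the myeloid receptor Csf1r among them (log2 fold change -1.60), and 2 were higher. Their part in the Itgam value was not tested.

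Here 6 members were higher and 4 lower at PWD14 among 29 tested, against 23.4% and 23.2% of all genes, so that members were called no more often than genes at large. The rest of the 6 were Itgb4 (log2 fold change 0.67) and Lamb3 (0.61), and the rest of the 4 were Itga4 (-2.17, at 2.97 CPM or less in each library), Lamb1 (-0.85) and Itgb2 (-0.76). Of the 15 basement membrane genes, 14 were tested and 2 were higher (Plec and Col7a1) and 6 lower at PWD14, led by Col4a6 (-3.31) and Col4a5 (-2.74). Lama5, a laminin alpha chain of epidermal and hair follicle basement membrane, stood at 179 CPM at PWD0, 21.2 and 18.2 CPM at PWD14, 29.8 and 27.3 CPM at PWD21 and 128 CPM at PWD28. With all spiny mouse libraries in 1 fit 4 members were called, without PWD14 replicate 1 there were 6 and without PWD21 replicate 2 there were 5.

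Over the time course, libraries of PWD14 and PWD21 were set against those of PWD0 and PWD28 as a description, since each tissue had 6 libraries and PWD28 only 1. In epidermis, 6 members were higher in all wound libraries of PWD14 and PWD21 than in PWD0 and PWD28 (Itga7, Itgax, Itgb1, Itgb5, Itgb6 and Itgb7), 9 were lower (Itga1, Itga2, Itga3, Itga9, Itga11, Itgb8, Lama5, Lamb2 and Lamc1) and 22 overlapped. Of the 19236 genes with a read in these libraries 3329 were higher and 3746 lower in this way, 36.8% in either direction, so that the members' counts were near the background. In dermis, 10 were higher (Itga5, Itga9, Itga10, Itga11, Itgav, Itgb1, Itgb2, Itgb5, Lama4 and Lamb1), 5 were lower (Itga3, Itgb4, Lama3 and Lamb3 of the basal epidermal set among them) and 22 overlapped, while 1890 of 18814 genes were higher and 1729 lower, 19.2% in either direction. Keratinocyte marker sums in dermis were 1910, 606 and 1120 CPM at PWD14 and PWD21 and 11700, 6810 and 2710 CPM at PWD0 and PWD28. Fibroblast marker sums were 150000, 113000 and 154000 CPM at PWD14 and PWD21 and 100000, 59800 and 82400 CPM at PWD0 and PWD28. The part of these cells in the dermal counts was not tested. Itgb1 and Itgb5 were on the higher side in both tissues.

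**Figure D5:**
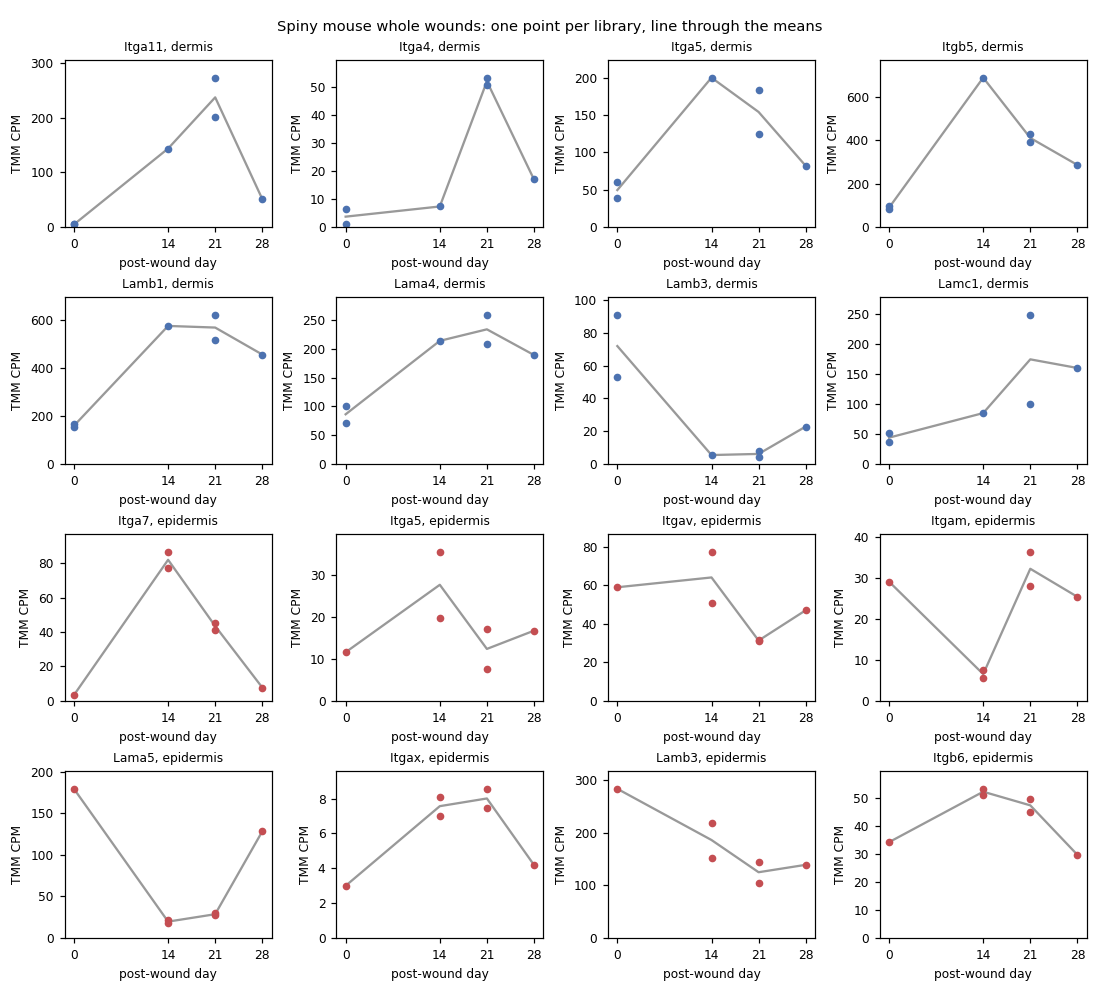
Level (y axes, TMM CPM from 0) of 8 members in spiny mouse dermis (blue, upper rows) and 8 in epidermis (red, lower rows) by post-wound day (x axes), 1 point per library and a line through the means. Itga11 in dermis and Itga7 in epidermis are high at PWD14 and PWD21, and Lamb3 in dermis and Lama5 in epidermis are low then.

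Members that were low in most libraries add little. Itgad, a myeloid subunit, did not exceed 1.79 CPM in any library and was tested in 4 of the 9 comparisons with wide errors. Lama1 stayed at 2.81 CPM or less and Itga2b, the platelet subunit, at 5.55 CPM or less. Itga10, a collagen receptor subunit of cartilage and fibroblasts, was low too but was called lower in epidermis in all 3 tissue comparisons. In the laboratory mouse it was at 11.5 to 13.8 CPM in the 4 dermis libraries of the center-margin comparison and at 0.698 to 4.65 CPM in epidermis. In the spiny mouse it was at 0.241 to 6.69 CPM in dermis and at 0.152 CPM or less in epidermis.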

How the data were processed

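Polyadenylated RNA of 25 libraries was sequenced, and the authors deposited raw read counts per gene symbol, 1 column per library. Reads were aligned with STAR (2.4.1d in the submitters' processing notes) to mm10, for the spiny mouse too, and counted with HTSeq 0.6.0. Each library also carried 5 summary lines for uncounted reads, which were kept out of library sizes and tests. Laboratory mouse epidermis was read paired-end and strand-specific, its dermis single-end and strand-specific, and spiny mouse libraries single-end without strand.

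Counts were tested as deposited with edgeR 4.0.16 (R 4.3.3, limma 3.58.1), using TMM scaling, the default filter on low counts, a prior count of 0.125 and the quasi-likelihood F test, fitted over all genes of the libraries compared. A gene was called at a Benjamini-Hochberg FDR under 0.05, and SE is the log2 fold change divided by the root of F. The study used an older edgeR. The quasi-likelihood estimate of edgeR 3 was run first, calling 0 genes between epidermal center and margin, and the estimate of edgeR 4 was then taken with both results seen. The older estimate is given as an alternative chosen after seeing the data. Other alternatives were DESeq2 1.42.0, the likelihood ratio test, RLE size factors, no filter on low counts, a minimum of 10 counts per library, 1 fit of each species as a whole, all 5 WT center dermis libraries, and each library left out in turn, where a lone sample is assumed to vary like the others. The fits were tested on simulated data, with 200 genes given a log2 fold change of 2. Center against margin, 50% were called in epidermis and 46.5% in dermis, and 1% in the interaction. Over time, 80% were called in spiny mouse epidermis and 52% in its dermis. Epidermis against dermis gave 84% in the spiny mouse, 36% at the laboratory mouse center and 0% at its margin. Real data gave 540 calls in the interaction and 7141 at that margin, so these shares are a rough guide only.

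Members and gene lists were chosen with earlier results of these data known. Every tested member was counted. Of the 37, 1 is kept in these counts and is not reported here. Those named were up to 14 called members per comparison by size of fold change or, where fewer than 5 were called, the 5 with the lowest p-values, and up to 3 called genes per direction of each related list. Any further member was picked with its values in view. The division of the 5 WT center dermis libraries follows library names in the study's clustering figure. The labels do not number or pair replicates, so numbers here follow the order of deposit, and p-values cover the spread between these samples. Exon lengths came from GENCODE vM21. Figures were drawn with matplotlib 3.10.9 in Python 3.11.15.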

Additional observations from a re-analysis of the deposited data

Results flagged for a closer look

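Among the 5 WT center dermis libraries, replicate 4 lay apart from the other 4 by Dixon's 95% criterion for 4 of the 35 members tested here. Itga4 was lowest there at 34.4 CPM, with the next library at 71.2 CPM. Itgam was highest at 210 CPM (next 88.3 CPM), as were Itgb3 at 121 CPM (next 87.5 CPM) and Lama1 at 1.03 CPM, with the other libraries at 0. Chance flags about 1 in 20 such groups, and these 5 libraries come from 2 sets. With the other libraries at 0, any Lama1 value above 0 would be flagged, so this rate does not cover it.

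The center-margin contrast differed between epidermis and dermis by the interaction test for Itga5 (1.67 on the log2 scale), Lama4 (3.80) and Itgb6 (11.31, a fitted value that depends on the prior count because center dermis had 0 counts).

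In the tissue contrast, the PWD21 libraries of the spiny mouse, and not all of its libraries, went the opposite way to those of the laboratory mouse wound center for Itgam (log2 fold change 1.24 in the spiny mouse), Itgax (4.10) and Lama1 (-2.67). Lama1 was near the floor, with 70 and 77 counts in laboratory mouse center epidermis and 0 in both center dermis libraries of that comparison. In the spiny mouse at PWD21 it had 7 and 6 counts in epidermis and 22 and 87 in dermis. The difference between species was not tested.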

How the results depend on the processing

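The 3 comparisons of epidermis with dermis kept the number of members called within 1.5 times its value under every alternative run, at 27 to 31 in the spiny mouse, 23 to 34 at the laboratory mouse center and 22 to 28 at the margin. The other counts moved. Between epidermal center and margin (1 member), DESeq2 called 9, the likelihood ratio test 6, all laboratory mouse libraries in 1 fit 8 and the edgeR 3 estimate 0, and leaving out a library gave 0 to 19. Over all genes this comparison had 176 calls, 1511 with DESeq2, 1533 with the likelihood ratio test and 0 with the edgeR 3 estimate. Between dermal center and margin (1 member), DESeq2 called 6, the likelihood ratio test 5, a minimum of 10 counts 3, all 5 WT center libraries 4, and the edgeR 3 estimate and the 1 fit of all libraries 0 each, and leaving out a library gave 0 to 2. In the KO comparison (0 members), DESeq2 called 6, the likelihood ratio test 1, all libraries in 1 fit 2 and all 5 WT libraries 1, and leaving out a library gave 0 to 12. In the interaction (4 members), DESeq2 called 7, the likelihood ratio test 9, a minimum of 10 counts 1 and all libraries in 1 fit 0, and leaving out a library gave 1 to 8. In spiny mouse epidermis (10 members) all libraries in 1 fit gave 4, and leaving out a library 5 to 14. In spiny mouse dermis (14 members) leaving out a library gave 7 to 22. The causes were not tested. For the members called in each comparison, or the 5 with the lowest p-values where fewer were, 1292 alternative values kept direction and side of the threshold, 44 became called, 103 lost the call and none reversed. No paired analysis was possible because the labels give no replicate numbers. Most groups held 2 libraries, and members under 3 counts cannot be told from absent ones.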
